A study of Drosophila melanogaster with 2 samples.

Results

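The genes examined here encode the subunits of TFIID and Mediator, the complexes that assemble RNA polymerase II at promoters. They were taken by gene symbol from the Ensembl annotation: every protein-coding gene named Taf or TAF with a number, MED with a number, Tbp, CycC or Cdk8. The rule found 45 of the 13945 protein-coding genes on the 6 chromosome arms. Of these, 15 belong to TFIID and 27 to Mediator. Taf12L is a testis paralog of Taf12, and TAF1B and TAF1C-like take their names from an RNA polymerase I factor. Subunits whose symbols fall outside the rule are given beside it. These are ix (MED29), kto (MED12) and skd (MED13) of Mediator, and can, mia, nht and sa, the other testis TAF genes. Binding of DREF was mapped by ChIP-seq in 2 biological replicates of 1 group, whole Drosophila melanogaster embryos of 0 to 24 hours. The strain is Dref-GFP, in which DREF is fused to eGFP, and the fusion was precipitated with an antibody to GFP. The embryos were whole and of all embryonic ages, so a peak does not tell in which cells or at which age DREF was bound. No second condition was compared, so the comparisons are between replicates, between the genes and with all other genes.

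TFIID is made of the TATA-binding protein, TBP, and TBP-associated factors, TAFs. It recognises the core promoter and places TBP near the start of transcription. Several TAFs pair through histone folds, among them Taf6 with Taf9, Taf4 with Taf12, Taf8 with Taf10 and Taf11 with Taf13. Mediator carries signals from activators to the polymerase. Its head and middle modules contact the polymerase, its tail contacts activators, MED14 joins the modules, and a kinase module of Cdk8, Cyclin C, MED12 and MED13 binds reversibly. DREF is a DNA-binding factor with a BED-type zinc finger. Its site is the DNA replication-related element (DRE), TATCGATA, which reads alike on both strands and occurs at promoters of growth and proliferation genes.

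Sequences from the bound starts show what lay under the summits. The first set is the exact DREs nearest to the summits of 4 Mediator genes, with 11 bases on either side on the strand of the gene and the DRE in capitals. All sequences are from the RefSeq copy of the Release 6 assembly, which is dm6.
MED17 (head, chr3R:18189034-18189063, plus strand): gagcactcattTATCGATAgccggccgcag
MED18 (head, chrX:1865833-1865862, plus strand): acgttcatcgtTATCGATAgactatttgat
MED7 (middle, chr3R:10761203-10761232, minus strand): cacctttaagtTATCGATAgctaggcacgg
MED25 (tail, chr3R:20008925-20008954, plus strand): cataagttgacTATCGATAgcagcagagcg
The whole 87 bases between the starts of MED28 and its divergent neighbour CG4553 are shown because they hold a pair of exact DREs, in capitals.
MED28 to CG4553 (chr3R:25476916-25477002, plus strand): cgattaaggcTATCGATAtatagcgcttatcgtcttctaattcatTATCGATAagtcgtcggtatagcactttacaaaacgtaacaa
The strongest peak of TFIID lay in the 44 bases between Taf10 and Taf10b, which are shown with their only match to the DRE with 1 mismatch in capitals. Counted from 1 at the 5' end of the printed strand, the change from the DRE is A8T.
Taf10b to Taf10 (chr2L:2767846-2767889, plus strand): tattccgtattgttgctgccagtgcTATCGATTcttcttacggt
Other matches with 1 mismatch lay at Taf9, where the change is T1C, at MED30, where it is T7C, and at Cdk8, where it is A6T.
Taf9 (chrX:17842124-17842153, plus strand): ctagacgtctgCATCGATAgtatcgcataa
MED30 (chr3L:654067-654096, minus strand): ttgttttatgtTATCGACAacagtgtcatt
Cdk8 (chr3L:9838663-9838692, minus strand): taaggctgtgtTATCGTTAtcgggagacag

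DREF was bound at the starts of 28 of the 45 genes. A gene was called bound when at least 1 of its transcripts started within 250 bp of a peak summit in the conservative list. That list is the stricter of the authors' sets of peaks from both replicates, and by this rule 30.6% of all protein-coding genes were bound. The share was 62.2% over all 45 genes, 60.0% (9 of 15) in TFIID and 66.7% (18 of 27) in Mediator. Within Mediator, the head had 7 of 9 genes bound and the middle 6 of 8. The tail had 3 of 6 and the kinase genes that the rule covers 1 of 2. MED14 was bound and MED26 was not. With the genes outside the rule added, the tail came to 4 of 7 and the kinase module to 2 of 4. MED19 was placed in the middle and MED27 in the tail. With both counted in the head instead, and only genes of the rule, the head had 9 of 11, the middle 5 of 7 and the tail 2 of 5. The modules are too small to rank, and no test of a difference between them was made.

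**Figure D1:**
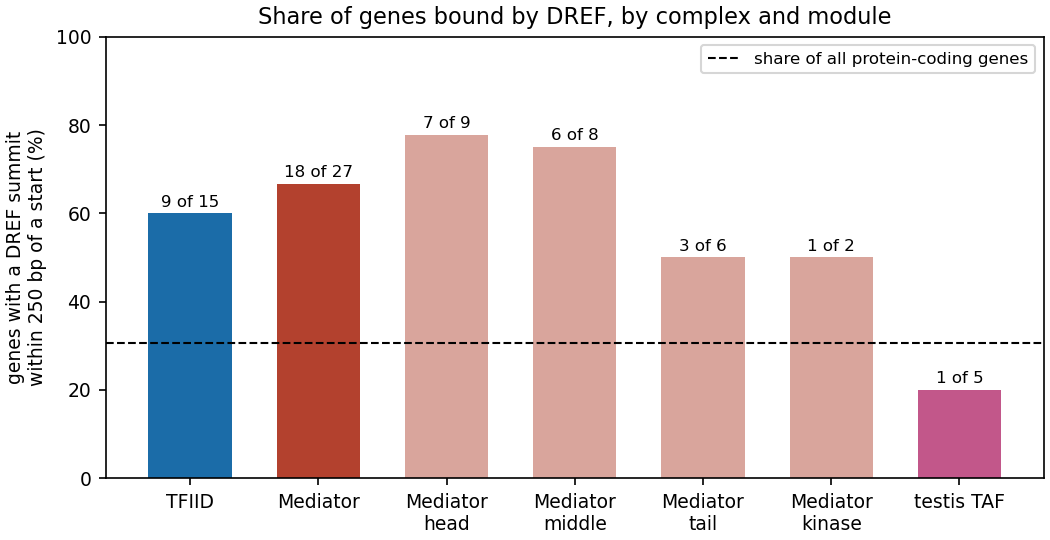
Share of genes with a DREF summit within 250 bp of a start, in percent, by complex, Mediator module and testis TAF genes (the latter with the 4 outside the symbol rule). The dashed line is the share of all protein-coding genes, 30.6%. The bars of TFIID and Mediator stand at 60.0% and 66.7%, and that of the testis genes at 20.0%.

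The calls were mostly shared by the replicates, which is partly built in, since the conservative list was made from both. In the list made from replicate 1 alone, 26 of the 45 genes were bound, against 26.9% of all protein-coding genes in that list. In the list made from replicate 2 alone, 31 were bound, against 28.7% of all genes. Of the 28 genes, 26 were bound in both of these lists, or 92.9%, against 83.3% of all bound genes. The exceptions were Taf11, in neither of them, and MED16, in the list of replicate 2 alone. These are also the only members of the 28 whose peak had a q-value above 0.05, with −log10 q of 0.84 at Taf11 and 1.26 at MED16. Among all 4272 bound genes, 369 had such a peak.

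The signals that follow are the authors' own values of peak strength, in arbitrary units. For each gene the first value is from the conservative list, made from both replicates. The values of replicate 1 and replicate 2 come from each replicate's own ranked list of candidate peaks. Where several peaks of that list overlapped, the one whose summit was closest was taken. The median over the 28 bound genes was 1097, against 908 over all 4272 bound genes, and 17 of the 28 lay above that median. The quartiles were 294 and 1769 for the 28 genes and 228 and 1935 for all bound genes. The lists of the replicates were made separately, so a difference in level between them was not tested.

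In TFIID, the histone-fold TAFs Taf10, Taf10b and Taf9 carried the strongest peaks. Taf10 and Taf10b are neighbouring paralogs that are transcribed away from each other, and they shared 1 peak on chr2L at 2767662 to 2768009. Its signal was 3761, with 1448 in replicate 1 and 2327 in replicate 2, which placed it at rank 189 of the 5292 peaks. The summit was 38 bp upstream of Taf10 and 7 bp upstream of Taf10b. Taf9, which also serves the SAGA coactivator, had a peak of 3365, with 1218 and 2154 in the replicates, at chrX 17841959 to 17842284. Its summit lay 41 bp upstream of the start, with no start of another gene within 250 bp. Tbp, the subunit that gives the complex its contact with the TATA box, had a signal of 2221, with 900.04 and 1329.8 in the replicates. The Tbp summit was 16 bp upstream of the start and 13.5 bp from the middle of an exact DRE, the only one near a summit at the 9 bound TFIID genes.

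The remaining bound TFIID genes ranged from strong to very weak. Taf13 had a signal of 1703, with 601 in replicate 1 and 1108 in replicate 2. Taf7, a partner of Taf1, had a signal of 712, with 159 and 467. Its ratio of replicate 2 to replicate 1, 2.94, was the highest of the 28, and the replicate 1 summit lay 57 bp from that of the conservative list. Taf8 had 696, with 274 and 419.95. The Taf8 summit lay 8 bp before the start. Taf4 had 226, with 81.4 and 150.1. The lowest was Taf11 at 93.45, with 48.7 in replicate 1 and 40.8 in replicate 2, which made it the only member with a lower value in replicate 2.

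The histone-fold partners did not carry alike peaks. Taf9 had one of the strongest peaks of the set and its partner Taf6 was not bound. Taf4 was bound weakly and its partner Taf12 was not bound. Both Taf8 and Taf10 were bound, with 696 and 3761, and both Taf11 and Taf13, with 93.45 and 1703. These pairings depend on the 250 bp rule. The summit counted for Taf11 lay 3 bp from the start of und, and that for Taf13 lay 8 bp from the start of nesd. The nearest summit to Taf6 was 276 bp away, just outside the limit. Taf1, the largest subunit, Taf2, which contacts the initiator, Taf3 and Taf5, a core scaffold subunit, completed the 6 unbound genes of TFIID.

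**Figure D2:**
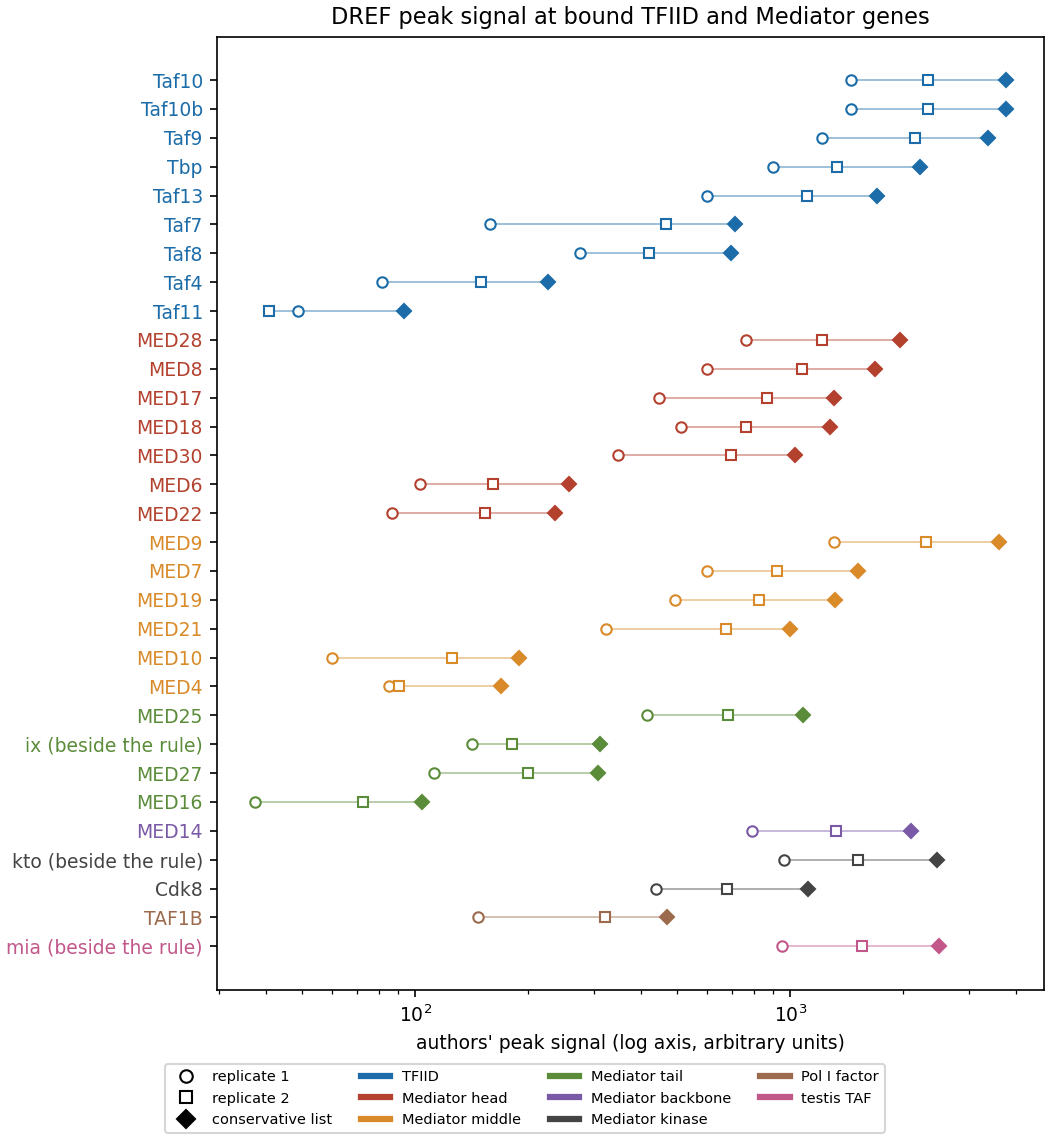
Peak signal on a log axis for each bound gene, coloured by class, with replicate 1 (circle), replicate 2 (square) and the conservative list (diamond) joined by a line. Genes marked as beside the rule are ix, kto and mia. Taf10 and Taf10b (1 shared peak), MED9 and Taf9 stand farthest right, at 3761, 3589 and 3365, and Taf11 is the only gene whose square lies left of its circle.

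In the head of Mediator, the module at the centre of polymerase contact, signals ranged from 236 to 1966. MED28 was highest at 1966, with 761 in replicate 1 and 1214.8 in replicate 2. MED8 followed at 1677, with 601 and 1076. MED17, the central scaffold of the head, had 1306, with 447 and 866. MED18 was close to it at 1276, with 512 and 762. These 4 genes each had an exact DRE within 100 bp of the summit, and MED28 had 2 of them, printed above. MED30 had no exact DRE and a signal of 1030.5, with 346 and 696. MED6 and MED22 were much lower. MED6 had 258, with 103 and 161, at an internal start, and MED22 had 236, with 86.7 and 153. MED11 and MED20 were not bound.

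In the middle module, MED9 stood apart with a signal of 3589, with 1307 in replicate 1 and 2299 in replicate 2. The next was MED7 at 1514, with 600.4 and 921, and each of these genes had an exact DRE. MED19 had 1312, with 494 and 823, and MED21 had 995, with 322 and 674. MED10 was low at 189, with 60.1 and 125, as was MED4 at 169, with 85.0 and 90.8. The unbound genes were MED1, a contact for nuclear receptors, and MED31.

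In the tail, 1 gene of the rule exceeded the median of all bound genes. This was MED25 at 1083, with 415 in replicate 1 and 683 in replicate 2. Its summit lay 1 bp inside the gene and 8.5 bp from a DRE. MED27 had 306, with 112 and 199.8, and MED16 had 105, with 37.4 and 72.6. The ix gene, which encodes MED29, had 312, with 142 and 181. MED15, MED23 and MED24 were not bound. The backbone gene MED14 had 2101, with 789 and 1324. In the kinase module, Cdk8 had 1112, with 439 and 678, and kto had 2461, with 962 and 1517, while CycC and skd were not bound. By the 250 bp rule, the genes of the kinase subunit and MED12 thus had conservative peaks and those of the cyclin and MED13 did not. The nearest conservative summit to skd lay 468 bp upstream of a start, with a signal of 273, near Pdss2. The ranked list behind the conservative list held lower peaks within 250 bp of a start, of 65.6 at CycC and 32.8 at skd. Their q-values were 0.719 and 0.724, and 47.1% of all unbound protein-coding genes had a ranked peak there.

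Most of the summits lay just upstream of the start. Of the 28, 26 were upstream, or 92.9%, against 89.7% of all bound genes. A distance of at most 100 bp was found at 23, or 82.1%, the same share as over all bound genes. The median distance was 38.5 bp, against 42 bp over all bound genes. By annotation, 21 of the 28 summits were intergenic, or 75%, against 71.6% of all bound genes, and 6 were in a 5' UTR of some transcript. The summit of MED7 lay in another exon, and none lay in coding sequence. The members just inside the limit were Taf13 at 238 bp and Taf11 at 230 bp. Those just outside were Taf6 at 276 bp, from a peak of 99.9 at ash1, and TAF1C-like at 310 bp, from a peak of 2399.6 at MESK2.

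The start of another gene lay within 250 bp of the summit at 15 of the 28 genes, or 53.6%, against 42.1% of all bound genes. In all 15 cases at least 1 such gene was on the opposite strand, which held for 38.8% of all bound genes. The partners were EMC1 (Taf7), und (Taf11), nesd (Taf13), Naa80 (MED6), Gcna (MED18), CG43867 (MED22), CG4553 (MED28), Cap-H2 (MED7), PDCD-5 (MED10), CG11170 (MED16) and elm (MED27). MED4 had the antisense RNA gene CR43470, and MED9 had CG42518 on its own strand and Nup75, a nuclear pore gene. Taf10 and Taf10b had each other.

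At 9 of the 28 genes the start of the other gene was the nearer one, or 32.1%. The same held for 19.3% of all bound genes. The Taf11 summit lay 230 bp from Taf11 and 3 bp from und, and the Taf13 summit 238 bp from Taf13 and 8 bp from nesd. The summits of MED27 and MED7 were 217 and 179 bp from these genes and 61 and 99 bp from elm and Cap-H2. MED4 lay 108 bp and its antisense RNA 5 bp from the summit. Taf10, MED9, MED18 and MED28 had both starts within 70 bp. With a summit given to the gene of the nearest start alone, 6 TFIID genes and 12 Mediator genes remained bound, against 25.2% of all genes under that rule. Within 100 bp of a start, 7 of 15 TFIID genes and 15 of 27 Mediator genes were bound, against 25.6% of all genes. The files do not tell which of a divergent pair a peak acts on.

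**Figure D3:**
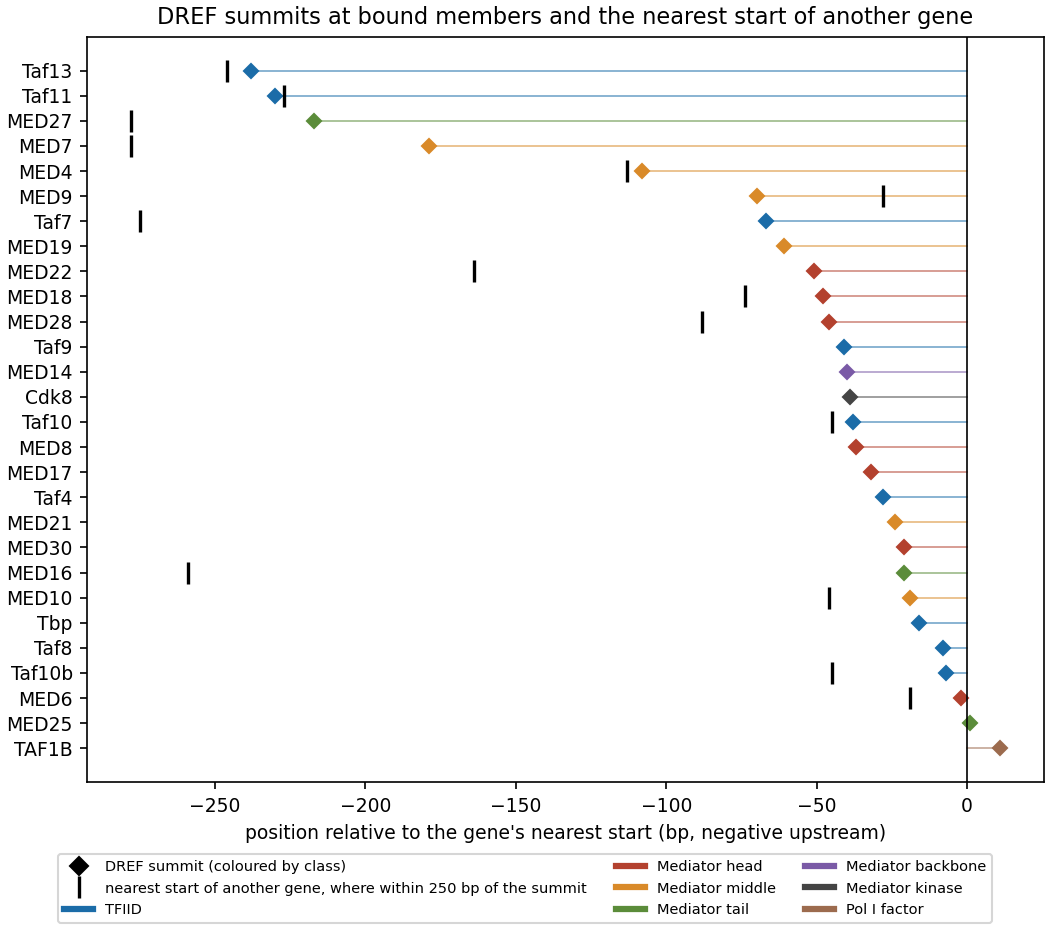
Position of the DREF summit (diamond, coloured by class) relative to the nearest start of each of the 28 bound members, in bp, with negative values upstream. Black ticks mark the nearest start of another gene where it lay within 250 bp of the summit. Most diamonds lie within 100 bp of zero, and those of Taf13, Taf11 and MED4 lie beside a tick.

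An exact DRE lay within 100 bp of the summit at 8 of the 28 bound genes, or 28.6%, against 26.7% of all bound genes. It was also found in 0.529% of windows of the same length centred 1000 bp from the summits, and in 7.84% of such windows at the outermost starts of all protein-coding genes. The 8 genes were Tbp, MED8, MED17, MED18, MED28, MED7, MED9 and MED25, which is 1 of 9 bound TFIID genes and 7 of 18 bound Mediator genes. Their signals ran from 1083 to 3589, with a median of 1596. A further 6 genes had only a match with 1 mismatch, namely Taf9, Taf10, Taf10b, MED30, MED27 and Cdk8, with a median of 2238 and a range of 306 to 3761. With up to 1 mismatch allowed, 14 of the 28 genes thus had a match, or 50%, against 57.6% of all bound genes. The 14 genes with neither had a median of 364, from 93.45 to 2101, the highest being MED14. Over all bound genes the medians of these classes were 1696, 1370 and 214. The signals of the first and last class overlapped, since MED14, Taf13 and MED19 lacked any such match within 100 bp of the summit and exceeded MED25. At Taf13 a match with 1 mismatch, A8T, lay just upstream of the Taf13 start, outside that window.

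The letters CGATA, which the DRE contains and which are a site of the boundary protein BEAF-32, were near 23 of the 28 summits, or 82.1%, against 75.5% of all bound genes. They were near the summits of all 9 bound TFIID genes, which are 8 distinct peaks, and of 13 of the 18 bound Mediator genes, or 72.2%. TATAAA was near 12 of the 28, or 42.9%, against 25.3%. It was not particular to bound members. Within 100 bp of the outermost start, 10 of 28 bound members had it, or 35.7%, against 23.6% of all bound genes. Among unbound members 7 of 17 had it, or 41.2%, against 31.6% of all unbound genes. The motifs were searched on both strands, and CGATA and ATCGAT overlap the DRE.

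Of the 17 unbound genes, 14 had their nearest conservative summit over 1000 bp away, as did 90.5% of all unbound protein-coding genes. In the ranked list from which the conservative list was drawn, 9 of the 17 had a peak within 250 bp of a start, with signals of 45.9 to 148 and scores of 122 to 809, below the lowest score of 830 in the conservative list. Such a peak was also present at 47.1% of all unbound protein-coding genes, so the count is near the background. The 9 genes were Taf1, Taf2, Taf12, Taf12L, MED1, MED20, MED23, MED31 and CycC. Taf1 was the highest, at 148, with 32.7 in replicate 1 and 113 in replicate 2, and it was listed in the less strict thresholded list of the series, as was MED23 with 83.1. The q-value was 0.00475 at Taf1 and ran from 0.31 to 0.82 at the others. The Taf1 signal was also above those of the bound genes Taf11 and MED16, at 93.45 and 105. Taf6, TAF1C-like and MED15 had no peak there in this list or in the ranked list of either replicate.

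Taf3 and MED26 had a strong peak in replicate 2 and none in replicate 1. Both lie on chromosome 4, the small, largely heterochromatic chromosome. Replicate 2 listed a peak of 737 at the Taf3 start, with its summit 17 bp upstream, and a peak of 731 at the inner of 2 MED26 starts, with its summit 44 bp upstream. Both had the highest score, 1000, and the highest −log10 q of that list, 3.73. Neither had an overlapping peak in the ranked list of replicate 1 or in either ranked list made from both replicates, so neither gene was called bound. On chromosome 4, 11 of the 28 thresholded peaks of replicate 2 were absent from the ranked list behind the conservative list, or 39.3%, while on the other arms the share ran from 0.686% to 3.51%. The reason for the absence was not tested. MED26 also had a peak of 480 in the conservative list, 423 bp inside its outer start. Both replicate 2 summits had an exact DRE within 100 bp, shown here in capitals on the strand of the gene.
Taf3 (chr4:466845-466874, minus strand): cataccccaaaTATCGATAtatttcccatc
MED26 (chr4:787635-787664, minus strand): acgtgaaagtaTATCGATAataattgttaa

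Motif 1, the promoter element bound by the zinc finger protein M1BP, was present at 7 of the 17 unbound starts. Its core, GGTCACAC, lay within 100 bp of the outermost start in 41.2% of these genes. The share was 4.84% among all protein-coding genes without a summit and 6.76% among all protein-coding genes. The 7 were Taf1 and Taf5 of TFIID and MED11, MED15, MED20, MED23 and MED24 of Mediator. Among the bound genes, 5 of 28 had it, namely Taf4, MED8, MED10, MED19 and MED22, or 17.9% against 11.1% of all bound genes. Of these 5, Taf4, MED10 and MED22 were among the weakest peaks, at 226, 189 and 236, while MED19 and MED8 had 1312 and 1677. No DRE, with or without a mismatch, was found near the outermost start of any unbound member other than Taf3. That is 1 of 17, or 5.88%. Among all unbound protein-coding genes the share was 1.25% for an exact DRE and 8.90% with up to 1 mismatch, so such a low count is usual for unbound genes. Motif 1 was looked at with the peaks known, and whether M1BP was bound was not measured. The sites at 5 of the 7 genes are shown with the core in capitals, on the strand that reads it, which is the strand of the gene in each case.
Taf1 (chr3R:6646893-6646922, plus strand): tgtccatcgacGGTCACACttacgcgtgtg
MED11 (chr3L:18745836-18745865, plus strand): tctcgtgttctGGTCACACtgttatctggt
MED20 (chr2L:8072823-8072852, minus strand): aagtcagcactGGTCACACtggacgctttt
MED15 (chr2L:473008-473037, plus strand): ttgcctgaaacGGTCACACtgtgctcagag
MED24 (chr3L:8191276-8191305, plus strand): aaagatacctcGGTCACACtgagcgctgct

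**Figure D4:**
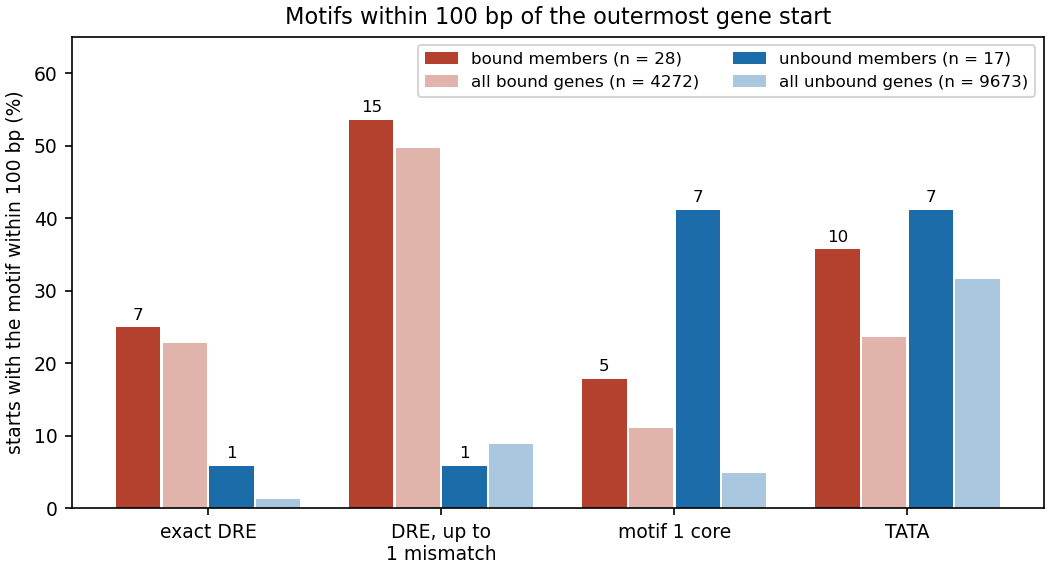
Share of outermost gene starts, in percent, with a motif within 100 bp, for the 28 bound and 17 unbound members and for all 4272 bound and 9673 unbound protein-coding genes, members included. Digits over the bars count members. Motif 1 stands at 41.2% in unbound members and 4.84% in all unbound genes, and an exact DRE at 25% in bound members and 22.8% in all bound genes.

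The testis paralogs were compared with their generally expressed counterparts, gene by gene. These TAFs serve transcription in male germ cells. Of the 5 testis genes mia alone was bound, and its signal of 2495, with 947.5 in replicate 1 and 1554 in replicate 2, was above that of all TFIID genes but Taf9, Taf10 and Taf10b. Its counterpart Taf6 was not bound. The mia summit lay 36 bp upstream of an inner start and 500 bp inside the outermost start, so the call depends on the inner start. For the other pairs, Taf4 and Taf8 were bound and nht and sa were not, while Taf5 with can and Taf12 with Taf12L were unbound on both sides. The nearest conservative summit lay 585 bp from sa, 32528 bp from nht, 40063 bp from can and 53945 bp from Taf12L.

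The RNA polymerase I factor gene TAF1B was bound, with a signal of 469. The replicates had 147 and 319.7, and the summit lay 11 bp inside the gene. TAF1C-like was not bound.

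By arm, all 4 members on the X, which are Taf8, Taf9, MED18 and MED22, were bound, and 40.2% of all genes there. Neither of the 2 members on chromosome 4 was, against 13.8% of all genes there. On 2L, 4 of 7 members were bound, against 28.0% of all genes, and on 2R 4 of 7, against 31.2%. On 3L the count was 8 of 13, against 26.9%, and on 3R 8 of 12, against 29.5%. Bound members were short genes, with a median length of 1157 bp against 2830 bp for unbound members. Over all protein-coding genes the order was the other way, with 2744 bp for bound and 1924 bp for unbound genes.

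Across the 28 bound genes, replicate 2 was higher in 27, or 96.4%, against 91.9% of the bound genes with a value in both replicates. The members had a median ratio to replicate 1 of 1.72 and a range of 0.838 to 2.94. The median ratio over all bound genes was 1.58. Sequencing depth is unknown for these lists, and its part in this ratio was not tested.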

How the data were processed

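The deposited files are lists of ChIP-seq peaks made from each replicate or from both. Their coordinates are those of dm6, per the labels and the deposited notes. Each peak has the authors' score, read as a scaled irreproducible discovery rate (IDR), the authors' signal, and the deposited −log10 q-value. The sources used here do not give the aligner, the peak caller, the read depth or whether the signal is scaled for depth. A control library is named in the labels and was not analysed here. The 8 further per-replicate columns of each ranked list were not used. The ranked list taken as the source of the conservative list was the one that holds all of its peaks.

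Genes were those of Ensembl release 115 and sequence that of Release 6. A peak's summit is its start plus the deposited offset. Each gene took its highest-signal peak within 250 bp of any start. Peaks were matched between lists by an overlap of at least 1 bp. Motifs were searched as exact letters on both strands within 100 bp of a summit or start. Python 3.11.15 and NumPy 2.4.6 were used, and the calling of bound genes and the motif search were tested on simulated data. With 1 condition, and genes that are not replicates, no p-value is given, and shares and medians stand beside those of all genes. The labels number the samples as biological replicates and do not say whether they came from separate collections of embryos.

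The members, gene classes and motifs were chosen with earlier results of these data known. Every member was named, together with the subunits outside the symbol rule and neighbours that share a peak. Alternatives covered the distance, the peak list, the threshold, the start used, the motif window and the module of MED19 and MED27.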

Additional observations from a re-analysis of the deposited data

How the results depend on the processing

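Of 99 alternative values, 93 stayed within 1.5 times the main count or within the spread between replicates. These values are not independent, since the sets share genes, and the limit of 1.5 is wide. Falls from 9 to 6 bound TFIID genes and from 18 to 12 bound Mediator genes, under the nearest-start rule, stayed within it. The number of bound members ran from 23 (within 100 bp of a start) to 31 (within 500 bp, or replicate 2 alone) among the alternatives planned. The shares of all genes under these 3 settings were 25.6%, 34.5% and 28.7%, in that order. The number was 19, against 25.2% of all genes, when a summit counted for the nearest start alone, a setting chosen after seeing the data. That setting moved the Mediator middle from 6 to 3 bound genes. With the outermost start only, no testis gene was bound (0), since the mia summit lies at an inner start. With 1 mismatch allowed, 14 members had a DRE. Within 500 bp, 14 of the 17 unbound members had a ranked peak. The share of all unbound genes at that distance was not computed, so this count has no background. In that ranked list 96.8% of the peaks had a q-value above 0.05. The median signal was 443 and 696 when replicate 2 or replicate 1 was left out, since it is then read on the scale of the other list. The less strict list added Taf1 and MED23, and leaving out replicate 1 added Taf1, Taf3, MED23 and MED26 and dropped Taf11. Leaving out replicate 2 dropped Taf11 and MED16. Limiting peaks to a q-value of at most 0.05 dropped the same genes, Taf11 and MED16. Motif 1 was at 7 unbound members within 50, 100 and 250 bp of the start. No paired analysis was possible because there is 1 group. With depth unknown, a gene without a peak is not shown to be unbound.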
